A study of Mus musculus with 6 samples.

Results

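The junction and polarity genes described here are 33 genes that build the cell contacts of the seminiferous epithelium, with the claudins left out. They were chosen by gene symbol, taking every array probe annotated to one of them, which gave 83 of the 45281 probes. The study took Sertoli cells, the somatic nurse cells of the seminiferous tubules, from mice of strain C57B6J/129SvEv aged 6 weeks. A Sox9-GFP label let the cells be sorted by fluorescence, and each RNA went on 1 Illumina bead array. In the Rb cKO group (3 arrays, Rb1 flox/-; Amh-Cre +) Rb1, the retinoblastoma tumour suppressor gene, had a floxed allele opposite a null one, and Cre recombinase was driven by the promoter of Amh, which is active in Sertoli cells. The Control group (3 arrays, Rb1 flox/-) shared both alleles but had no Cre, so 1 copy of Rb1 stayed intact in its cells. Since Cre was present in Rb cKO alone, the effects of Cre and of losing Rb1 cannot be told apart. The labels do not state that a group's arrays stem from different animals, so the p-values measure the spread between arrays, which may be technical.

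Sertoli cells join each other near the base of the epithelium in the blood-testis barrier, where tight junctions, a testis-specific adherens junction called the basal ectoplasmic specialisation, gap junctions and desmosome-like contacts lie together. Toward the lumen, the apical ectoplasmic specialisation anchors the heads of elongating spermatids to the Sertoli cell. Transmembrane proteins make the contact, plaque proteins tie them to actin or intermediate filaments, and polarity complexes place them along the cell.

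Levels are given as normalised log2 intensities, where 1 unit is 2-fold, and differences are Rb cKO minus Control on that scale. A probe counted as detected on an array where its detection score was over 0.95, and it was tested if at least 3 of the 6 arrays detected it. That held for 46 member probes of 25 genes. The other 8 genes had no tested probe, and 22 genes had a probe detected on all 6 arrays. Each gene is described by its brightest tested probe unless another is named. Levels of different probes are not comparable with each other.

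The targeted gene Rb1 lay lower in Rb cKO at both of its probes. Probe ILMN_2861644 read 10.37, 9.92 and 9.36 on the Rb cKO arrays, against 10.53, 11.08 and 10.98 on the Control arrays. Probe ILMN_2679619 read 8.24, 7.73 and 7.44 in Rb cKO, against 9.10, 9.34 and 8.64 in Control. The groups did not overlap at either probe, and neither difference passed the test (limma adjusted p 0.668 and 0.399). Whether the probes lie in the deleted part was not determined. Rb cKO replicate 1 and Control replicate 3 stood apart from the other 4 arrays: their scores on principal component 1 (58.9% of the variance) were -113.9 and 110.2, against -34.3 to 31.4. Of the 15 Sertoli markers listed, 11 had a named probe, all 11 were tested, and 10 were detected on all 6 arrays. Their summed level was 91469 to 95715 normalised intensity units in Rb cKO and 97976 to 99053 in Control. Aard, Cst9 and Defb19 gave most of this sum and differed by -0.0077, 0.11 and -0.14. The median difference of the list was -0.39, with 10 of the 11 negative. Genes of other testis cells were detected too. Summed endothelial markers (9 of 11 tested, Kdr not detected) were at 1768 to 4482 units in Rb cKO and 501 to 870 in Control. Robo4, the brightest of them in Rb cKO, differed by 3.69, while the median difference of that list was 1.02. Peritubular myoid markers (6 of 8, Cnn1 and Tagln not detected) were at 10870 to 20596 in Rb cKO and 5432 to 10115 in Control. Leydig cell markers (5 of 7, Hsd3b1 not detected) were at 2326 to 8616 in Rb cKO and 1196 to 2982 in Control, and leukocyte markers (7 of 12, Ptprc and Itgam not detected) at 3201 to 4402 in Rb cKO and 4827 to 5633 in Control. The leukocyte sum ran opposite to most of its list: Mrc1, whose probe gave most of the sum, differed by -0.83, while the other 6 were positive and the list's median difference was 0.68. Spermatogonia markers (9 of 12, Zbtb16 and Nanos3 not detected) were at 4698 to 5727 in Rb cKO and 3717 to 4652 in Control, and spermatocyte markers (8 of 10, Sycp3 and Hormad1 not detected) at 53560 to 63839 in Rb cKO and 41120 to 58413 in Control. Spermatid markers (10 of 11) were at 98795 to 129267 in Rb cKO and 89938 to 118823 in Control. In sorted cells measured in bulk, fewer cells of a type and less RNA per cell cannot be told apart.

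No junction or polarity gene passed the test over all probes. Of the 46 member probes tested, 0 had an adjusted p under 0.05 in limma, and the smallest was 0.385, for occludin. Over all 21805 tested probes 31 passed, a share of 0.142%, and 0 passed with the replicate number as a block or without any 1 Control array. At an unadjusted p under 0.05, 2 member genes were higher in Rb cKO (Jam2 and Gjb2, 8% of 25) and 1 was lower (Ocln, 4%). The shares over all 12277 tested genes were 5.96% higher and 1.81% lower. Groups lay apart, with no overlap, in 4 members that were higher in Rb cKO (Jam2, Cxadr, Gjb2 and Dsg2) and 3 that were lower (Ocln, F11r and Gja1), which is 16% and 12% of the members. Over all tested genes these shares were 9.56% and 4.33%. The probes of Dsg2 and Cxadr passed the detection filter through the Rb cKO arrays, where they were higher, with 1 and 2 Control arrays detecting them. With detection on all 6 arrays, 2 of 22 members were apart and higher (Jam2 and Gjb2), against 8.53% of genes. On that basis 3 were apart and lower, against 4.48%. With counts this small, 1 gene more or fewer moves the share by 4 percentage points. Of the 25 genes, 12 had a positive and 13 a negative difference, with a median of -0.07, against a median of 0.12 over all tested genes. The sign of the members' median turned with median scaling (0.08), the deposited values (0.05), array weights (0.01) and without Control replicate 2 (0.07). The medians of all tested genes in these settings were 0.20, 0.15, 0.07 and 0.18. Without Rb cKO replicate 1 and Control replicate 3 the 2 medians lay together, at -0.026 for the members and -0.028 for all tested genes. With the replicate number as a block, 6 members were higher at an unadjusted p under 0.05 (Jam2, Cxadr, Gjb2, Nectin1, Dsg2 and Pkp2) and 1 was lower (Ocln), where the shares over all genes were 11.1% and 5.02%. Without Control replicate 1 the groups were apart for 6 higher and 8 lower members, against 26.8% and 11.8% of all genes, and 4 members were higher and 1 lower at that p, against 11.5% and 2.67%. Without Control replicate 2 they were apart for 5 higher and 5 lower members, against 16.1% and 5.42%. Without Rb cKO replicate 3 that p was reached by 5 higher and 2 lower members, against 6.20% and 4.09%. Leaving out Rb cKO replicate 1 and Control replicate 3, that p was reached by 1 higher (Jam2) and 1 lower (Ocln), against 3.43% and 1.38%. The groups were then apart for 4 higher and 4 lower members, 16% each way, against 13.2% and 15.7% of all genes. The larger share of members apart and lower was thus not seen without these arrays.

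**Figure D1:**
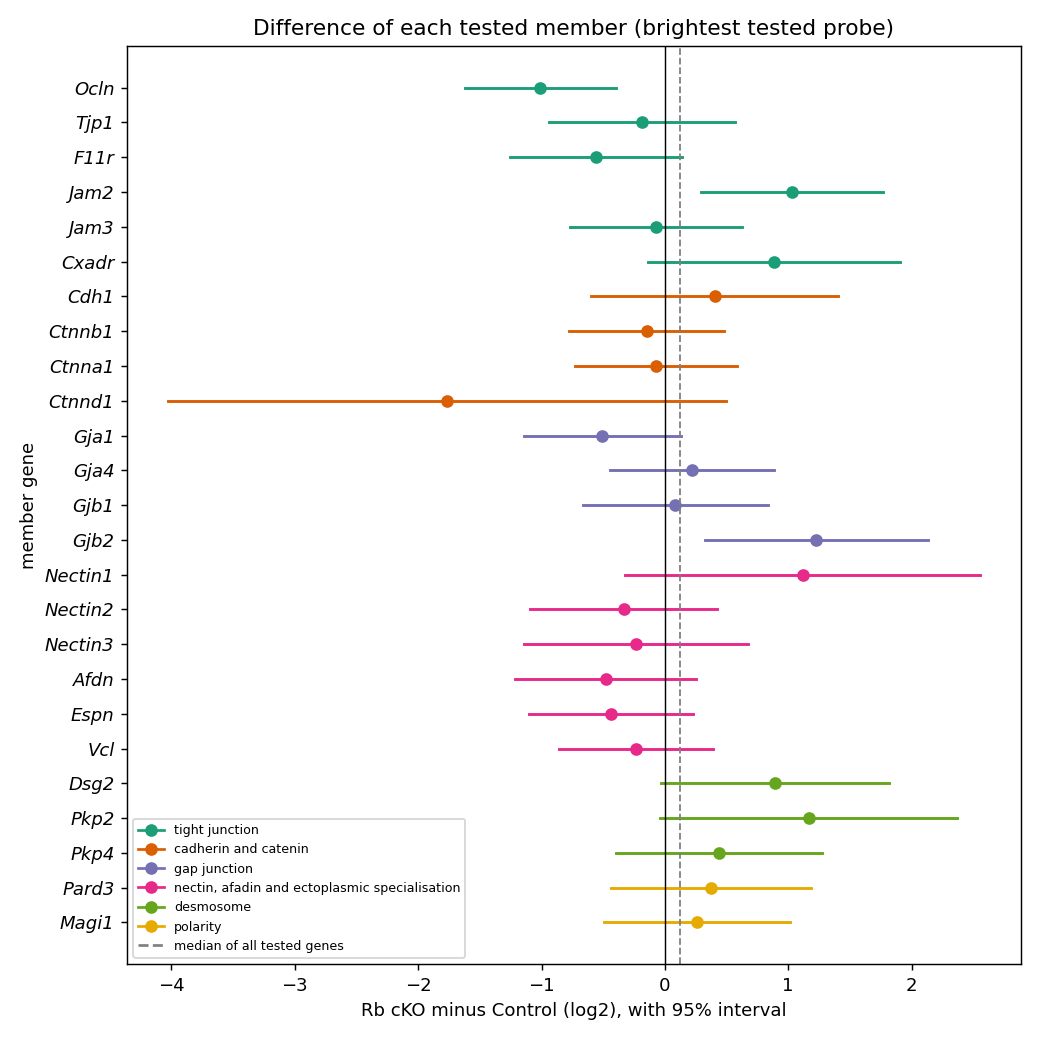
Log2 difference, Rb cKO minus Control, for the 25 tested member genes by role. Points are the limma estimates with 3 arrays a group, bars are 95% intervals, and the dashed line is the median of all tested genes, 0.12. The intervals of Ocln, Jam2 and Gjb2 leave out 0 before any adjustment.

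Of the 7 genes whose groups lay apart, none of which passed the test, 4 had a promoter in the RefSeq table of build GRCm38.p6. The promoter is shown here from 250 bases before to 50 after the gene's start. For Ocln, which has 2 listed, it is the one at the gene's start. Capitals mark matches on either strand to a GC box (GGGCGG), a Snail-type E-box (CACCTG), an AP-1 site (TGAGTCA) and an E2F-type core (GCGGGAA or GCGCGAA or GCGCCAA), and no matches overlapped each other. Ocln lies at chr13:100552669-100552968 on the minus strand, F11r at chr1:171437311-171437610 on the plus strand, Gja1 at chr10:56377050-56377349 on the plus strand and Gjb2 at chr14:57104653-57104952 on the minus strand.
Ocln: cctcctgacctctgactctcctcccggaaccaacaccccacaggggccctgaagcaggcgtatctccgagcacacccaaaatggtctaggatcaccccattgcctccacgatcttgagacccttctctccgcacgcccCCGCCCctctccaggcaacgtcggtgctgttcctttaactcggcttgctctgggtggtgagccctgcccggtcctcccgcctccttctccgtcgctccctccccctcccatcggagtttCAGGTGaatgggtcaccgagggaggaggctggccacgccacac
F11r: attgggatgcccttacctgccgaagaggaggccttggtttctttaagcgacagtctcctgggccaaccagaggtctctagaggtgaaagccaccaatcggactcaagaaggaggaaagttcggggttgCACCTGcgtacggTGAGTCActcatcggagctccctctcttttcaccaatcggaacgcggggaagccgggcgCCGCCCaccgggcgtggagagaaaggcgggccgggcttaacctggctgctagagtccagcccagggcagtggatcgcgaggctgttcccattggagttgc
Gja1: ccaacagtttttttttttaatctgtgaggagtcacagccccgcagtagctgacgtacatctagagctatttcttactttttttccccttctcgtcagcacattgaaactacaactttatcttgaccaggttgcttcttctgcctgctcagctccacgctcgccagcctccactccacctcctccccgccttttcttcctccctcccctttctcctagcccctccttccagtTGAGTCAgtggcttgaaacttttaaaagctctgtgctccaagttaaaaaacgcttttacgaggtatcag
Gjb2: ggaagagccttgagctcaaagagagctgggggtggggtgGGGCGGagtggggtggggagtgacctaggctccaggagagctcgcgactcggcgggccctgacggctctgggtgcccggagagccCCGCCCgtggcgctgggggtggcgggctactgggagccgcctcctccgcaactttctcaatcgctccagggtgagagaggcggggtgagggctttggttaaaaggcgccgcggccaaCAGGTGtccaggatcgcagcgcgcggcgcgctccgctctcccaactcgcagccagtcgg
The GC box matched in Ocln (1 match), F11r (1) and Gjb2 (2), and 35.7% of all 32851 listed promoters hold one. The E-box matched once each in Ocln, F11r and Gjb2, against 20.2% of all promoters. The AP-1 site matched once each in F11r and Gja1, against 5.20% of all. The E2F-type core matched in none of the 4 windows, against 8.07% of all, which says only that these letters are not in these windows.

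Among the 6 tested tight junction genes, occludin had the most negative difference. Ocln, a transmembrane protein of tight junction strands, read 7.33, 7.33 and 7.02 on the Rb cKO arrays, against 8.03, 8.20 and 8.49 on the Control arrays. All 3 Rb cKO arrays lay below all 3 Control arrays. The difference was -1.01 ± 0.26 (SE), a 2.02-fold lower mean, with an adjusted p of 0.385. It stayed between -1.12 and -0.82 in 16 alternatives, with an unadjusted p under 0.05 in all 16, and was -0.94 without the 2 arrays that stood apart. The single Ocln probe leaves no second probe to set beside it.

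F11r encodes JAM-A, an immunoglobulin-like adhesion molecule at tight junctions. It read 10.06, 10.37 and 10.22 in Rb cKO and 10.62, 11.25 and 10.46 in Control, a difference of -0.56 ± 0.30 with an adjusted p of 0.766. The groups did not overlap, although 10.37 and 10.46 lay close together, and they overlapped with median scaling and with the deposited values. Tjp1, the scaffold ZO-1 that links transmembrane proteins to actin, read 9.62, 9.87 and 9.45 in Rb cKO and 9.28, 10.10 and 10.13 in Control. Its groups overlapped, with a difference of -0.19 and a 95% interval from -0.94 to 0.57. Jam3, or JAM-C, differed by -0.07 (interval -0.77 to 0.63), and its sign turned in 6 of 16 alternatives.

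Jam2, which encodes JAM-B, was higher in Rb cKO at its brightest probe, ILMN_2592881, and not at every probe. That probe read 11.06, 10.70 and 10.58 on the Rb cKO arrays, against 9.25, 10.08 and 9.91 on the Control arrays. The groups did not overlap, and the difference was 1.03 ± 0.31 with an adjusted p of 0.557. Across 16 alternatives it ran from 0.78 to 1.20. Of the other 4 tested Jam2 probes, ILMN_2550414 gave 0.62, ILMN_1227559 gave 0.0065, ILMN_2790842 gave -0.09 and ILMN_2790839 gave -0.59. On the last 3 of these, Control replicate 3 was the highest of the 6 arrays, at 9.23, 6.63 and 7.02, while on the brightest probe it lay within the Control range. JAM-B is also made by endothelial cells, whose summed markers did not overlap between the groups, and the part of those cells in the Jam2 difference was not tested.

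Cxadr, an adhesion molecule first known as the coxsackie and adenovirus receptor, read 6.87, 5.39 and 5.46 in Rb cKO and 5.29, 4.87 and 4.92 in Control. The groups did not overlap, but 1 array set most of the difference: it was 0.88 ± 0.43 with all arrays, 0.40 without Rb cKO replicate 1 and 0.35 without both arrays that stood apart. The probe was detected on all 3 Rb cKO arrays and on 2 Control arrays, so its Control level was near background. The difference was 0.46 with normexp and 0.48 without background correction, and the groups overlapped with the deposited values. The remaining tight junction members, Tjp3 (ZO-3), Marveld2 (tricellulin, a protein of contacts where 3 cells meet) and Cgn (cingulin, a plaque protein), had no tested probe. Neither Tjp3 probe nor the Marveld2 probe was detected on any array. The Cgn probe was detected on Control replicate 3 alone, where it read 7.71, against 4.61 to 4.70 on the Rb cKO arrays and 4.65 and 4.76 on the other Control arrays.

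**Figure D2:**
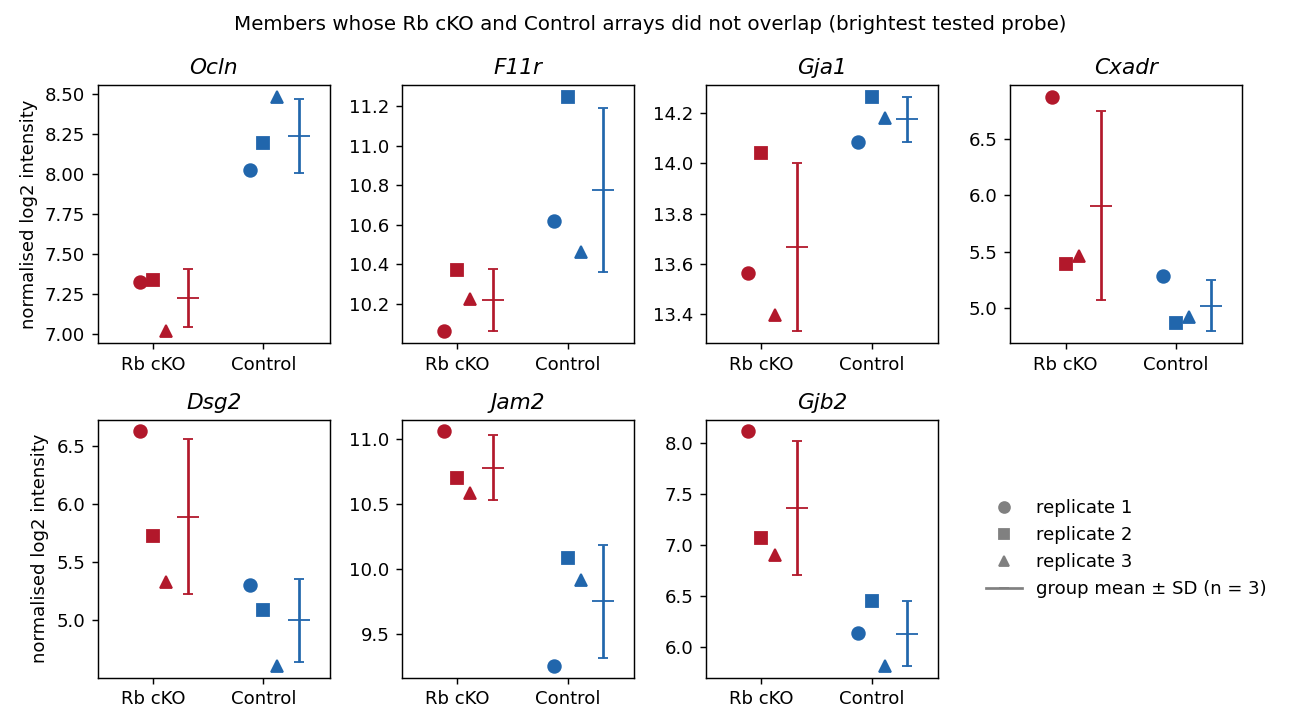
Normalised log2 intensity on each array for the 7 members whose groups did not overlap, with Rb cKO left and Control right. Symbols give the replicate number and bars the group mean and SD of 3 arrays, and each panel has its own scale. Ocln, F11r and Gja1 lie lower in Rb cKO, while for Cxadr, Dsg2, Jam2 and Gjb2 the highest value is that of Rb cKO replicate 1.

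Of the 3 classical cadherins, Cdh1 alone had a tested probe. Cdh2, or N-cadherin, the cadherin best known from Sertoli cell contacts, had 2 probes, ILMN_1216390 and ILMN_2605503. The first read 4.62, 4.78 and 4.72 in Rb cKO and 5.10, 4.69 and 4.86 in Control and was detected on Control replicate 3 alone, and the second was detected on no array, so neither was tested. None of the 4 probes of Cdh3, or P-cadherin, was tested, and 1 of them was detected on 1 array. Cdh1, or E-cadherin, read 7.31, 6.03 and 5.91 in Rb cKO and 5.65, 6.32 and 6.06 in Control. The groups overlapped, and its difference of 0.40 became -0.04 without Rb cKO replicate 1, the array with the highest value. The other Cdh1 probe, ILMN_1227162, gave 0.27 with overlapping groups.

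Ctnnb1, the β-catenin that links cadherins to α-catenin, read 12.71, 12.73 and 12.48 in Rb cKO and 12.46, 12.88 and 13.02 in Control. The groups overlapped, with a difference of -0.15 and an interval from -0.77 to 0.48. Other Ctnnb1 probes gave -0.42 and -0.83, the second on a probe detected on 3 of 6 arrays. Ctnna1, the α-catenin that connects the complex to actin, differed by -0.07 (interval -0.73 to 0.58). Both signs turned with median scaling and with the deposited values, and that of Ctnna1 in 5 of 16 alternatives in all. Ctnnd1, the p120-catenin that keeps cadherins at the membrane, had the widest interval of any member, -4.03 to 0.50 around a difference of -1.77. Its Rb cKO values ran from 4.85 to 8.95 and its Control values from 8.39 to 9.60, and the value of 4.85 came from replicate 1, which did not detect the probe. Without the 2 arrays that stood apart the difference was -0.28. A further 2 Ctnnd1 probes were detected on Control replicate 3 alone.

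The connexins form gap junction channels, and 2 of the 4 measured here were apart between the groups, 1 higher and 1 lower, where 9.56% and 4.33% of all tested genes were apart in these directions. Gja1 (connexin 43), the main connexin between Sertoli cells, read 13.57, 14.04 and 13.40 in Rb cKO and 14.08, 14.26 and 14.18 in Control. The groups did not overlap, by a margin of 14.04 against 14.08, and the difference was -0.51 ± 0.27 with an adjusted p of 0.766. Leaving out Rb cKO replicate 1 and Control replicate 3 gave -0.45, and the groups overlapped with median scaling (-0.32) and with the deposited values (-0.34). Across 16 alternatives the difference ran from -0.69 to -0.23, the smallest in size with array weights. The SD was 0.33 over the Rb cKO arrays and 0.09 over the Control arrays. The summed Sertoli markers also lay lower in Rb cKO without overlap, and their part in the Gja1 difference was not tested.

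Gjb2 (connexin 26), a connexin of epithelial cells, was higher in Rb cKO at both tested probes. Probe ILMN_2999627 read 8.11, 7.07 and 6.90 on the Rb cKO arrays, against 6.14, 6.45 and 5.82 on the Control arrays. Probe ILMN_1227148 read 6.42, 5.80 and 5.84 in Rb cKO, against 4.99, 5.33 and 5.08 in Control, and was detected on 3 Rb cKO and 2 Control arrays. Neither probe's groups overlapped, and Rb cKO replicate 1 was the highest array at both. The differences were 1.23 ± 0.39 and 0.89 ± 0.28, with adjusted p of 0.576 and 0.591. At the first probe the difference was 0.85 without Rb cKO replicate 1 and 0.69 without both arrays that stood apart, and that last value was the only one of 16 alternatives with an unadjusted p above 0.05. It was 0.85 with normexp, 0.87 without background correction and 1.26 with median scaling. Gja4 (connexin 37, found in arterial endothelium) and Gjb1 (connexin 32) differed by 0.22 and 0.08, with intervals of -0.44 to 0.88 and -0.67 to 0.83.

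At the ectoplasmic specialisation, 5 of 6 tested genes had a negative difference, none of them past the test and none with groups apart. The median over the 6 was -0.28. Over all tested genes, 4753 of 12277 had a negative difference. With median scaling Nectin2, Nectin3, Vcl and Afdn were at -0.14, -0.05, -0.02 and -0.28. Of the 11 Sertoli markers 10 were negative too, with a median of -0.39 and sums lower in Rb cKO without overlap, and their part in these differences was not tested. Espn, the actin-bundling protein espin that marks this junction, read 13.61, 14.31 and 13.67 in Rb cKO and 14.24, 14.32 and 14.34 in Control. Rb cKO replicate 2 lay within the Control range and the other Rb cKO arrays below it, a difference of -0.43 ± 0.28 with an adjusted p of 0.766. It ran from -0.66 without Rb cKO replicate 2 to -0.07 with array weights, and was -0.27 with median scaling and -0.29 with the deposited values. Other Espn probes gave -0.72 and -0.52, and the 4 Espn probes are annotated to 4 different RefSeq transcripts. Vcl, the actin-linker vinculin, differed by -0.23 (interval -0.86 to 0.39).

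The nectins are immunoglobulin-like molecules that adhere in pairs across the contact, and afadin (Afdn) ties them to actin. Nectin2, the nectin of the Sertoli side, read 12.90, 13.05 and 12.93 in Rb cKO and 12.71, 13.44 and 13.73 in Control. The 3 Rb cKO values lay close together (SD 0.08) inside a wider Control range (SD 0.53), with a difference of -0.33 and an interval from -1.09 to 0.42. A second bright Nectin2 probe, ILMN_2645493, gave -0.41. The dim probe ILMN_1218242, detected on 3 of 6 arrays, gave -1.25, with Control replicate 3 at 9.00 the highest array. Nectin3, which spermatids present to nectin-2, had 4 probes annotated to 3 RefSeq transcripts, and the 3 tested ones differed in sign at -0.23, 0.70 and -1.05. Afdn differed by -0.48 and, at another probe, by -0.07. Nectin1 ran from 6.17 to 8.04 in Rb cKO and from 5.16 to 7.0 in Control, a difference of 1.12 ± 0.61 that was 0.62 without Rb cKO replicate 1, 0.73 without Control replicate 3 and 0.23 without both. Between arrays of the same replicate number it was 1.05, 1.28 and 1.02, and limma's adjusted p was 0.191 with the replicate block, against 0.766 without it.

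**Figure D3:**
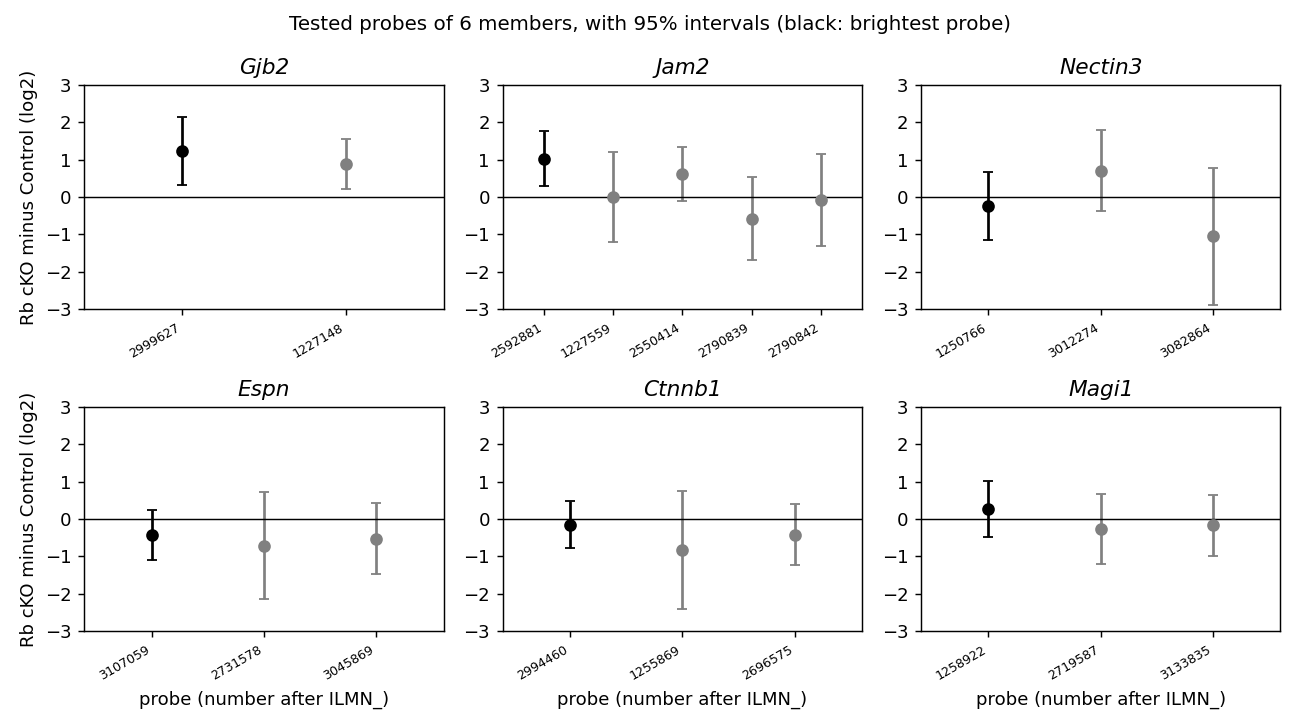
Log2 difference, Rb cKO minus Control, of every tested probe of 6 members, with 95% intervals over 3 arrays a group. The brightest probe is black. Both Gjb2 probes lie above 0, at 1.23 and 0.89, all tested Espn and Ctnnb1 probes lie below 0 (the brightest Ctnnb1 probe lay above 0 with median scaling and with the deposited values), and the probes of Jam2, Nectin3 and Magi1 fall on both sides.

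The 3 tested desmosome genes, Dsg2, Pkp2 and Pkp4, had positive differences at their brightest probes, and none passed. Dsg2, a desmosomal cadherin, read 6.62, 5.72 and 5.33 in Rb cKO and 5.30, 5.08 and 4.60 in Control. The groups did not overlap, though 5.33 and 5.30 nearly met, and the probe was detected on 3 Rb cKO arrays and 1 Control array, so it passed the detection filter through the group where it is high. The difference was 0.89 ± 0.40 with an adjusted p of 0.766, and 0.33 without the 2 arrays that stood apart. Normexp gave 0.46 and no background correction 0.48, and the groups overlapped with the deposited values. A second tested Dsg2 probe, ILMN_1215475, gave 0.21 with overlapping groups. Pkp2, a plakophilin of the desmosome plaque, ran from 6.61 to 8.07 in Rb cKO and from 5.48 to 6.82 in Control, a difference of 1.16 ± 0.51 that was 0.70 without Rb cKO replicate 1 and 0.45 without the 2 arrays. Between arrays of the same replicate number it was 1.25, 1.10 and 1.14, and with the block the adjusted p was 0.177, against 0.766 without it. Another Pkp2 probe gave 0.93. Pkp4, a p120-related plaque protein, differed by 0.44 at its brightest probe, and its others gave 0.19 and -0.61, and without the 2 arrays its sign turned, to -0.05. The Dsc2 probe and the probe of Jup (plakoglobin) were not detected on any array. Jup read 4.48, 4.55 and 4.62 in Rb cKO and 4.52, 4.72 and 4.45 in Control. The part in these results of the peritubular and endothelial markers, whose sums were higher in Rb cKO without overlap, was not tested.

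No tested polarity gene had groups apart. Pard3, the scaffold of the Par complex, read 6.34, 5.65 and 5.44 in Rb cKO and 5.63, 5.69 and 5.0 in Control, overlapping groups with a difference of 0.37 and an interval from -0.44 to 1.18. Magi1, a scaffold at epithelial contacts, differed by 0.26 at its brightest probe and by -0.17 and -0.27 at others. Both turned sign without the 2 arrays that stood apart, to -0.11 and -0.02. The Pard6b probe was detected on Control replicate 3 alone, at 5.94, and was not tested.

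**Figure D4:**
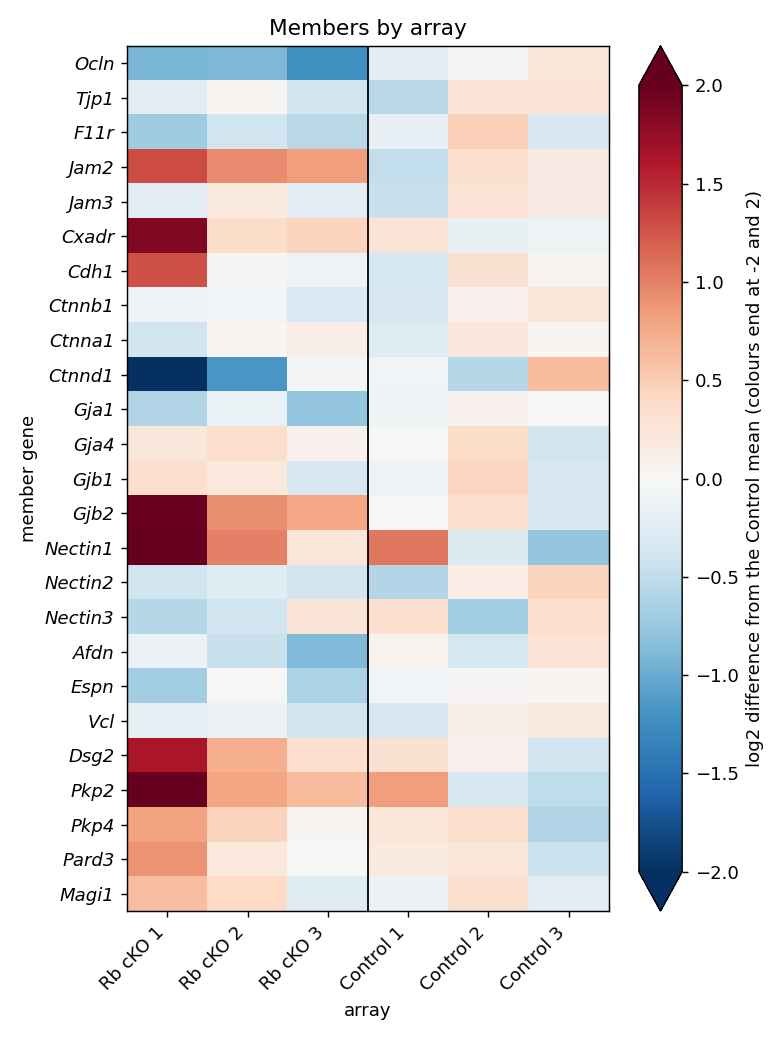
Each tested member on each array, as the log2 difference from the mean of the Control arrays, with Rb cKO arrays left of the line. Red is higher and blue lower, and colours end at -2 and 2. Ocln is below 0 on all 3 Rb cKO arrays and Jam2 and Gjb2 above 0, and the deepest colours stand on Rb cKO replicate 1.

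Much of the variation among members followed single arrays, in part as it did over all tested genes. Rb cKO replicate 1 gave the highest value of 10 of the 25 members (40.0%, against 39.7% of all tested genes), namely Jam2, Cxadr, Cdh1, Gjb2, Nectin1, Dsg2, Pkp2, Pkp4, Pard3 and Magi1. Control replicate 3 gave the highest value of 9 members (36.0%, against 12.5% of all genes) and the lowest of 8 (32%, against 43.8%). Rb cKO replicates 2 and 3 and Control replicate 1 were highest for 0 members, against 5.20%, 10.5% and 9.95% of all genes. Of 12 member probes detected on 1 array only, 8 were detected on Control replicate 3, and 2326 of 3469 such probes over the whole array (67.1%) were detected there. Those 8 probes belonged to Cgn, Cdh2, Ctnnd1, Afdn, Pkp4 and Pard6b. Of the 12 members with more than 1 tested probe, 4 had probes of opposite sign (Jam2, Nectin3, Pkp4 and Magi1). The standard errors over the beads of 1 array were 0.019 to 0.196 log2 units for the members' brightest probes, the highest of them for Gjb1, and they hold no spread between arrays.

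The precision limits what can be said of the members that did not pass. The median half-width of the members' 95% intervals was 0.75 log2 units, from 0.61 for Ocln to 2.26 for Ctnnd1. For 7 members (Tjp1, Jam3, Ctnnb1, Ctnna1, Gja4, Gjb1 and Vcl) the interval of the brightest probe lay within -1 and 1. At that probe it left out a difference of 1 unit in either direction. At dim probes, such as those of Gja4 and Gjb1, the offset of 16 shrinks differences. There 1 unit is more than 2-fold in signal above background, so a 2-fold change in signal is not left out. For the other 18 members the interval did not lie within -1 and 1. The other tested probes of Ctnnb1 had intervals of -1.24 to 0.40 and -2.41 to 0.74, which do not leave out a 2-fold lower level. The intervals are not adjusted for the number of probes.

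Other junction and polarity genes, taken from lists of 86 genes, gave no call either. Of 53 tested, 0 had an adjusted p under 0.05, an unadjusted p under 0.05 was reached by 6 with a positive and 3 with a negative difference, where 5.96% and 1.81% of all tested genes reached it, and the median difference was 0.05. Among 10 other tight junction genes the median was 0.14. In that list Ildr2, of the angulin family at contacts between 3 cells, read 11.31, 10.22 and 10.10 in Rb cKO and 7.0, 7.89 and 7.30 in Control, a difference of 3.14 ± 0.41 with an adjusted p of 0.0576. Every Rb cKO array exceeded every Control array by more than 2 units, and Ildr2 had the smallest adjusted p of all the junction genes examined. Esam, an adhesion molecule that also marks endothelial cells, differed by 1.31. Among 14 ectoplasmic specialisation genes the median was -0.07. Actn1, the actin crosslinker α-actinin, read 9.47, 8.45 and 9.04 in Rb cKO and 7.06, 6.92 and 6.63 in Control, a difference of 2.12 ± 0.33 with an adjusted p of 0.0969. Itga6, the laminin receptor subunit α6 integrin, differed by -1.38 and at another probe by -0.88, and Lamc3, a laminin chain, by 1.09 and 0.81. Among 8 other cadherin, catenin and nectin genes the median was -0.09, with Cadm1, an adhesion molecule of the immunoglobulin family, at -0.92. Among 3 other connexins and pannexins it was 0.79, with Panx1, a channel protein, at 1.22 and 1.19 and Gjc1 (connexin 45) at 0.79. Among 16 other polarity genes it was 0.0024, with Dlg5 at 1.03 and Pard3b at -1.26 (other probes -0.06 and -0.88), and among 2 other desmosome genes 0.10.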

How the data were processed

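Sertoli cell RNA was measured on 6 Illumina bead arrays, 3 Rb cKO and 3 Control, grouped by sample title. Per the submitters' processing notes BeadStudio was used, with no version. Per the file headers, each scanner table holds the authors' mean bead intensity per probe, the bead standard deviation, the number of beads (median 43 to 44 a probe) and a detection score, which rises with signal. The authors' deposited series table holds log2 values. These match the log2 intensities once an array's 75th percentile and then each probe's median over the arrays are subtracted. All 45281 entries were joined to 1 scanner probe each by that formula (largest distance 0.00069, smallest distance to a second probe 0.0042).

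The platform annotation gave 34885 probes a single symbol, 18 more than 1 and 10378 none, and named the genes. The 34807 Entrez IDs found in a GRCm38.p6 gene table gave the same symbols. Intensities were normalised with neqc (offset 16, background from 1 minus the detection score) and tested with lmFit and eBayes in limma 3.58.1 (R 4.3.3), two-sided, on group alone, with Benjamini-Hochberg adjusted p-values over 21805 probes and a threshold of 0.05. The fit was also run on simulated data with independent noise on every array. No simulated array stood apart from the rest, so that run does not bear on the arrays that did so here. No set test and no p-value adjusted over the members alone was made. The members and the lists were chosen with earlier results of these data known. The other lists were of Sertoli, spermatogonia, spermatocyte, spermatid, peritubular myoid, Leydig, leukocyte and endothelial markers and of other junction genes.

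All 33 members are named. Values on every array were given, by brightest tested probe, for members with groups apart or an unadjusted p under 0.05, and for 12 listed members, the rest as differences or ranges. Of the other junction lists up to 4 genes each were named, those with the smallest p. Deviations from the group means correlated between arrays of the same replicate number at 0.262, 0.410 and 0.473, each over 0.1. From these correlations only, the replicate number was tried as a block in an alternative. The labels do not state what a shared number stands for, and correlations between arrays of different numbers are not given here. That the numbers pair the arrays is therefore an assumption of the block, and the test on group alone does not make it.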

Additional observations from a re-analysis of the deposited data

How the results depend on the processing

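In 16 alternatives 0 member probes passed the threshold each time. All probes past it as higher were 31, and 56 with 1 probe per gene, 147 with array weights (2 lower), 12 without background correction, 9 with normexp at offset 50, 1 without the filter on dim probes, 0 with the replicate block, 0 to 15 leaving out 1 array (0 without any 1 Control array, 8, 2 and 15 without Rb cKO replicates 1, 2 and 3), and 6 without Rb cKO replicate 1 and Control replicate 3. The array weights ran from 0.375 to 8.44, the highest on Rb cKO replicate 2. Percentages in brackets are the shares of all tested genes. Members higher at an unadjusted p under 0.05 were 2 (5.96%), and 4 with 1 probe per gene (6.40%) or median scaling (6.82%). They were 6 with the replicate block (11.1%), 2 to 5 leaving out 1 array (3.71% to 11.5%) and 1 without both arrays (3.43%). Members lower were 1 (1.81%), and 2 with array weights (2.45%) or without the filter (1.95%), and 1 to 2 leaving out 1 array (0.782% to 4.09%). Members apart and higher were 4 (9.56%), and 2 with the deposited log2 values (6.62%). They were also 2 with detection on all 6 arrays (8.53%, 22 genes tested), and 4 to 6 leaving out 1 array (10.6% to 26.8%). Without both arrays they were 4 (13.2%). Members apart and lower were 3 (4.33%), and 1 with the deposited values (3.06%) or median scaling (2.81%), and 3 to 8 leaving out 1 array (5.42% to 11.8%). Without both arrays these were 4 (15.7%). The members' median ran from -0.13 to 0.08 and that of all tested genes from -0.03 to 0.20. The replicate block changed no other call. The causes were not tested. No slide or scan is named in the files, so that block was not run. The number of arrays limits the precision, and dim probes such as those of Cxadr and Dsg2 lie near background.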
